A study of Homo sapiens with 6 samples.

Results

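LTR5A and LTR5B are the older of the long terminal repeat (LTR) families of HML-2, the human endogenous retrovirus K group. All elements that the deposited LTR annotation names LTR5A or LTR5B were taken, which gave 272 LTR5A and 442 LTR5B elements, or 714 of the 720177 LTR elements measured. No expression value entered this choice. The youngest family of the group, LTR5_Hs (630 elements), served as the nearest comparison.

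A provirus enters the genome with an identical LTR at each end. The 5′ LTR acts as promoter and the 3′ LTR supplies the polyadenylation signal, and recombination between both often removes the internal genes and leaves a solo LTR. An LTR inside a gene can also be copied as part of that gene's unspliced or spliced RNA, so that RNA mapping to an LTR does not by itself show where transcription began. HML-2 LTRs are studied in tumours because several can drive RNA in embryonic and cancer cells, and the E-box of LTR5_Hs is a binding sequence of MYC.

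Total RNA of 4 cell lines of atypical teratoid/rhabdoid tumour (AT/RT), a childhood brain tumour that typically lacks the chromatin remodelling subunit SMARCB1, was measured in 6 libraries. A single library represented CHLA 02 and likewise CHLA 05, whereas 2 technical replicates were made from CHLA 04 and 2 from CHLA 06. All lines were grown in suspension, in DMEM:F12 supplemented with EGF, basic FGF and B-27, without further treatment, and the labels give no genetic alteration made in the laboratory. Each line was 1 biological sample, the libraries held no control line and no cells with SMARCB1 restored, and lines were therefore compared by values and not by a test.

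Between 355302 and 511408 reads per library lay on LTR elements, and between 10265899 and 20520229 on transcripts. The unit of an element is TPM, the length-scaled abundance of transcripts, computed over LTR elements alone, so that levels of elements and of genes are not comparable. On an element of 1000 bp, 1 read was worth between 0.899 and 1.34 TPM. SMARCB1 RNA was present in every library, at 13.5 to 26.2 TPM on the gene scale. The authors describe all 4 lines as without SMARCB1 expression. The value here is RNA summed over transcripts, and whether it is intact or gives protein was not measured. The neural marker TUBB3 ranged from 205 to 455 TPM, and a second gene entry with the same symbol from 3.55 to 30.4 TPM. NES ranged from 5.21 to 27.6 TPM, while PAX6 was at 15.8 to 36.9 TPM in CHLA 02, CHLA 04 and CHLA 05 and at 0.604 and 0.937 TPM in CHLA 06. MYC was high in CHLA 02 (79.7 TPM) and CHLA 06 (94.1 and 72.1 TPM) and low in CHLA 04 (0.612 and 0.937 TPM) and CHLA 05 (1.44 TPM). SETDB1 (42.7 to 87.6 TPM), ATRX (174 to 268 TPM) and TRIM28 (234 to 462 TPM), which take part in silencing endogenous retroviruses, were present in all libraries.

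Full-length members were close in length to LTR5_Hs and differed from it in sequence. The median length was 1021 bp for LTR5A, 981 bp for LTR5B and 965 bp for LTR5_Hs, against 330 bp over all LTR elements. Among elements of at least 900 bp (237 LTR5A, 291 LTR5B and 526 LTR5_Hs), the median identity between pairs was 90.0% within LTR5A and 82.7% within LTR5B. It was 78.4% between LTR5A and LTR5B, 72.4% between LTR5A and LTR5_Hs and 75.7% between LTR5B and LTR5_Hs. The nearest other element belonged to the same family for 235 of 237 LTR5A and 285 of 291 LTR5B elements.

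Stretches of GRCh38 around the core sites are shown for members with much RNA or a wide range between lines, with 1 LTR5_Hs element for comparison. They are the 2 LTR5A elements and the LTR5B element of highest mean TPM, and, among those of at least 900 bp, the 3 LTR5B elements of widest range with mostly unique sequence. All lie on the + strand, and bases were counted from the 5′ end of the element. In the TATA box region, capitals mark the hexamer aligned with TATAAA of the LTR5_Hs element. The LTR5B elements in ZNF761 (chr19), near AC009133.17 (chr16), near EIF2S2 (chr20) and in PCAT14 (chr22), and the LTR5_Hs element are given in that order.
LTR5B chr19:53443775-53444761, bases 497 to 562: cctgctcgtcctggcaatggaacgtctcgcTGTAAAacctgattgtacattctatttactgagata
LTR5B chr16:29740241-29741225, bases 496 to 561: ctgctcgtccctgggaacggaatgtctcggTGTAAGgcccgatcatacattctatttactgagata
LTR5B chr20:34135594-34136578, bases 493 to 558: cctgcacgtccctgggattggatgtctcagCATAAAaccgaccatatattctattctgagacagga
LTR5B chr22:23537740-23538729, bases 495 to 560: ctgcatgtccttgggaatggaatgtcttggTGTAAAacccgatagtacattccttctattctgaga
LTR5_Hs chr6:99429371-99430327, bases 501 to 566: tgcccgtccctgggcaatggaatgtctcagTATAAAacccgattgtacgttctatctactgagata

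Of the 4 LTR5B elements, those on chr19 and chr22 held TGTAAA at this site, that on chr16 held TGTAAG and that on chr20 held CATAAA. Across full-length elements the aligned hexamer was TATAAA in 67.9% of LTR5A, 38.5% of LTR5B and 56.7% of LTR5_Hs, and TGTAAA in 24.1%, 50.9% and 37.8%.

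Downstream, the E-box and polyadenylation region is shown for the LTR5A elements in SVIL-AS1 (chr10) and CECR7 (chr22) and for the LTR5B element near EIF2S2, because the E-box differs between the families. Capitals mark the hexamers aligned with CACGTG, the palindromic E-box, and with the polyadenylation signal AATAAA of the LTR5_Hs element.
LTR5A chr10:29426711-29427740, bases 737 to 874: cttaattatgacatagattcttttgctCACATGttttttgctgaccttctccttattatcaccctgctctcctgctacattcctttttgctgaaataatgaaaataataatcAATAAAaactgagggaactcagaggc
LTR5A chr22:17059134-17060168, bases 736 to 873: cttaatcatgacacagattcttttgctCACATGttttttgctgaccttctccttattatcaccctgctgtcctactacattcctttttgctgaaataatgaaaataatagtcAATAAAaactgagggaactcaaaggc
LTR5B chr20:34135594-34136578, bases 695 to 832: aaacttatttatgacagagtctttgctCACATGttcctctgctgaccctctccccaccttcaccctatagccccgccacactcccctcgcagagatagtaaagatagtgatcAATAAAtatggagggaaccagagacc

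All 3 held CACATG at the E-box site and AATAAA downstream. The authors' MYC pulldown tested, among other sequences, a CACATG sequence of an HML-2 LTR, and none of the LTR sequences tested held CACGTG. They report that MYC bound several of these sequences and none of the controls, without stating in their text which. The present values therefore do not show whether MYC binds CACATG in these members. CACATG stood in place of CACGTG in most members, in 69.6% of LTR5A and 66.3% of LTR5B elements, against 24% of LTR5_Hs. CACGTG itself was found at the site in 7.59% of LTR5A, 2.75% of LTR5B and 58.9% of LTR5_Hs elements, and the alignment had a gap there in 11.0%, 17.9% and 5.13%. Searched anywhere on either strand, CACGTG occurred in 11.8% of LTR5A, 6.53% of LTR5B and 62.7% of LTR5_Hs elements, and in 14.5% of the 9355 LTR elements of 900 to 1100 bp. The aligned polyadenylation signal was AATAAA in 86.5% of LTR5A, 84.9% of LTR5B and 92.8% of LTR5_Hs elements. The stretch aligned around the E-box site had a median identity to the LTR5_Hs element of 61.1% in LTR5A and 67.5% in LTR5B. Around the polyadenylation signal it was 59.5% and 64.3%.

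LTR5A carried a further AATAAA in its 5′ portion that the other families mostly lacked. Within the first 40% of the element AATAAA was found in 89.5% of LTR5A, 15.5% of LTR5B and 0.570% of LTR5_Hs elements, and in LTR5A its median position was at 28.9% of the length. TATAAA was found in the same 5′ zone in 37.6% of LTR5A, 1.03% of LTR5B and 0.380% of LTR5_Hs elements. Anywhere on either strand, TATAAA occurred in 92.8% of LTR5A, 44.7% of LTR5B and 59.3% of LTR5_Hs elements and in 63.1% of LTR elements of 900 to 1100 bp, and AATAAA in 100%, 88.0%, 93.7% and 80.7%. These are matches of letters, and no binding or RNA end was measured at them.

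**Figure D1:**
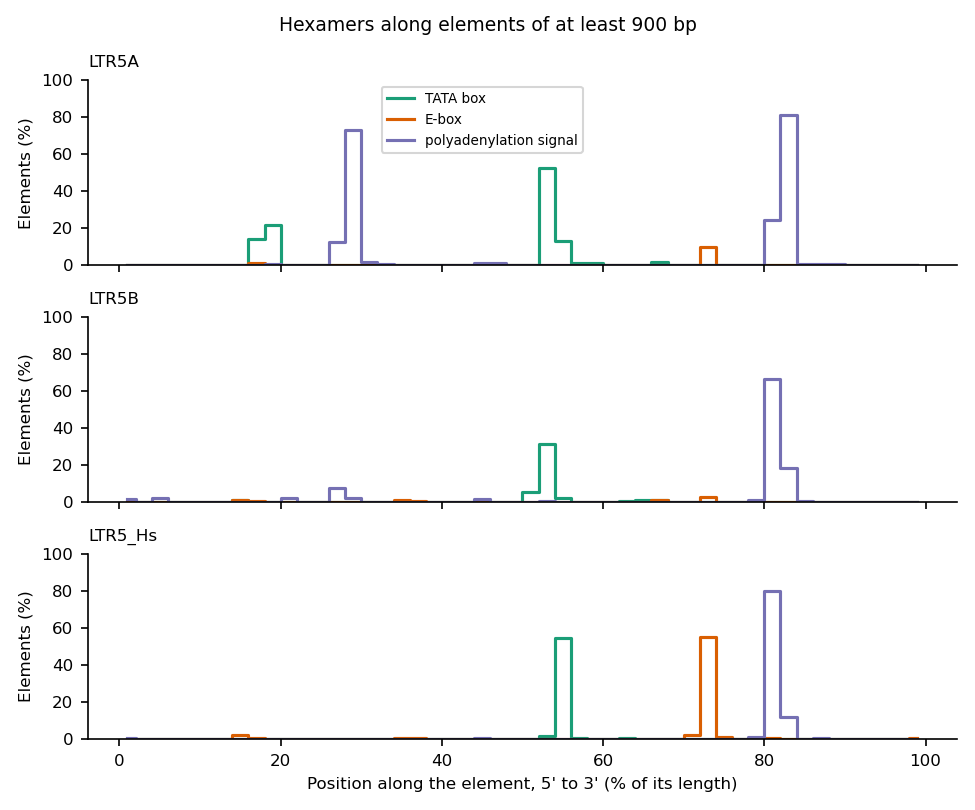
Share of full-length LTR5A (n = 237), LTR5B (n = 291) and LTR5_Hs (n = 526) elements that hold the TATA box, E-box or polyadenylation hexamer on the element strand (vertical axis, %) by position along the element (horizontal axis, % of its length). LTR5A has a second polyadenylation hexamer at a median of 28.9% of its length. The peak of the palindromic E-box CACGTG in LTR5_Hs is nearly missing from LTR5A and LTR5B, most of which hold CACATG at the aligned site.

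Few reads came from the members as a whole, which were also few among LTR elements. The 714 members, of 720177 LTR elements, held 11769 of the 2676207 LTR reads of the 6 libraries. Their share of reads was thus above their share of elements. In CHLA 02 LTR5A took 0.167% of LTR reads (95% Wilson interval 0.155 to 0.179), CHLA 04 gave 0.155% and 0.148%, CHLA 05 gave 0.200% (0.187 to 0.214) and CHLA 06 gave 0.215% and 0.192%. The mean was 0.151% ± 0.00547 in CHLA 04 and 0.203% ± 0.0168 in CHLA 06 (SD, n = 2 technical replicates). LTR5A was lowest in CHLA 04, with intervals that overlapped that of CHLA 02, and higher in CHLA 05 and CHLA 06, which differed by less than the replicate spread.

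For LTR5B the share was 0.247% in CHLA 02 (0.233 to 0.262) and 0.244% in CHLA 05 (0.229 to 0.259), while the replicates of CHLA 04 gave 0.235% and 0.241% and those of CHLA 06 gave 0.309% and 0.282%. The means were 0.238% ± 0.00403 in CHLA 04 and 0.296% ± 0.0190 in CHLA 06 (SD, n = 2 technical replicates). Only CHLA 06 stood above the others, which had overlapping intervals. The internal HML-2 sequence, HERVK-int, moved more, from 0.211% and 0.216% in CHLA 04 to 0.641% and 0.796% in CHLA 06, and LTR5_Hs ranged from 0.428% to 0.583%. All intervals and floors cover counting error only, and the spread between cultures of a line was not measured.

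RNA was found over a minority of members. Detected members were those whose TPM after quantile normalization passed 1.38 in any line, a threshold set at the peak of the curve of variation against mean. By this rule 76 LTR5A (27.9%) and 120 LTR5B elements (27.1%) were detected, against 184 LTR5_Hs elements (29.2%), 14.8% of all LTR elements and 20.5% of those of 900 to 1100 bp. The rule admits single reads, since 17 of the LTR5A and 25 of the LTR5B elements detected had a single read. At least 10 reads in a library were found for 30 LTR5A (11.0%), 42 LTR5B (9.50%) and 69 LTR5_Hs elements (11.0%), with 2.76% of all LTR elements and 7.72% of those of 900 to 1100 bp as background.

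Of the members, 166 LTR5A and 291 LTR5B elements had no read in any library, and for such an element up to 3 reads per library are allowed by counting error. Detection in all 4 lines was seen for 25 LTR5A and 47 LTR5B elements and detection in a single line for 25 and 33. The counts were 63 and 61 of 630 LTR5_Hs elements, and 23739 and 45620 of 720177 LTR elements. In the first replicates of CHLA 04 and CHLA 06 every member with a read passed the threshold, while in the other libraries only some did. Calls per line therefore depend in part on the library. Reads were concentrated in LTR5A, where 1 element held 19.5% and 6 elements held 50% of the 4799 reads of the family. In LTR5B the leading element held 7.33% of 6970 reads, and 11 elements held 50%.

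Orientation within genes separated members with RNA from those without in LTR5B. LTR5B elements inside a gene and on its strand were detected in 47 of 92 cases (51.1%, 95% Wilson interval 41.0 to 61.1), against 23 of 131 on the opposite strand (17.6%, 12 to 25) and 40 of 201 outside genes (19.9%). Over all LTR elements, detection was 41.9% on the strand of the gene, 8.16% on the opposite strand and 10.6% outside genes, and over those of 900 to 1100 bp it was 52.2%, 13.6% and 15%. For LTR5B the difference between the strands was 33.5 percentage points (21.0 to 44.9). With at least 10 reads in a library the shares were 22 of 92 (23.9%) and 4 of 131 (3.05%), a difference of 20.9 points (12 to 30.7), beside 12.2% and 0.620% over all LTR elements and 1.24% outside genes. For LTR elements of 900 to 1100 bp those shares were 29.9%, 3% and 4.07%, beside 23.9%, 3.05% and 4.98% for LTR5B. Elements are not replicates of a condition, and these intervals are given as a measure of counting error alone.

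The same order held in each library, since 40.2% to 44.6% of same-strand and 10.7% to 15.3% of opposite-strand LTR5B elements had at least 1 read. As LTR elements at large had this order too, nothing is read from it about LTR5B alone.

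In LTR5A the difference between strands depended on the number of reads asked for. Detection was 7 of 22 on the strand of the gene (31.8%, 16.4 to 52.7) and 13 of 42 on the opposite strand (31.0%, 19.1 to 46), a difference of 0.866 points (-20.7 to 24.9), which was 9.96 points without the first replicate of CHLA 06. At least 1 read was found for 36.4%, 31.8%, 50%, 27.3%, 22.7% and 31.8% of same-strand and for 23.8%, 19%, 28.6%, 21.4%, 28.6% and 28.6% of opposite-strand LTR5A elements, in CHLA 02, both replicates of CHLA 04, CHLA 05 and both of CHLA 06. The same strand was thus ahead in each library other than the first replicate of CHLA 06. At least 10 reads were found for 6 of 22 (27.3%) and 2 of 42 (4.76%), a difference of 22.5 points (4.59 to 43.7). Outside genes, 53 of 201 LTR5A elements (26.4%) were detected and 22 (10.9%) had at least 10 reads. A further 7 LTR5A and 18 LTR5B elements lay in genes of both strands.

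By reads, the families differed in where they lay. Same-strand elements held 57.7% of LTR5B reads and 40.5% of LTR5A reads, elements outside genes held 27.3% and 54.4%, and opposite-strand elements held 9.83% and 4.56%. Over all LTR elements the shares were 60% on the same strand, 26.7% outside genes and 7.09% on the opposite strand, near those of LTR5B. The LTR5A shares rest on the SVIL-AS1 element with 936 reads, without which 26.1% lay on the same strand and 67.6% outside genes. Whether the counting used the strand of the read is not given in the sources used here, and RNA that began in an LTR cannot be told apart from RNA of the host gene that runs through it.

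**Figure D2:**
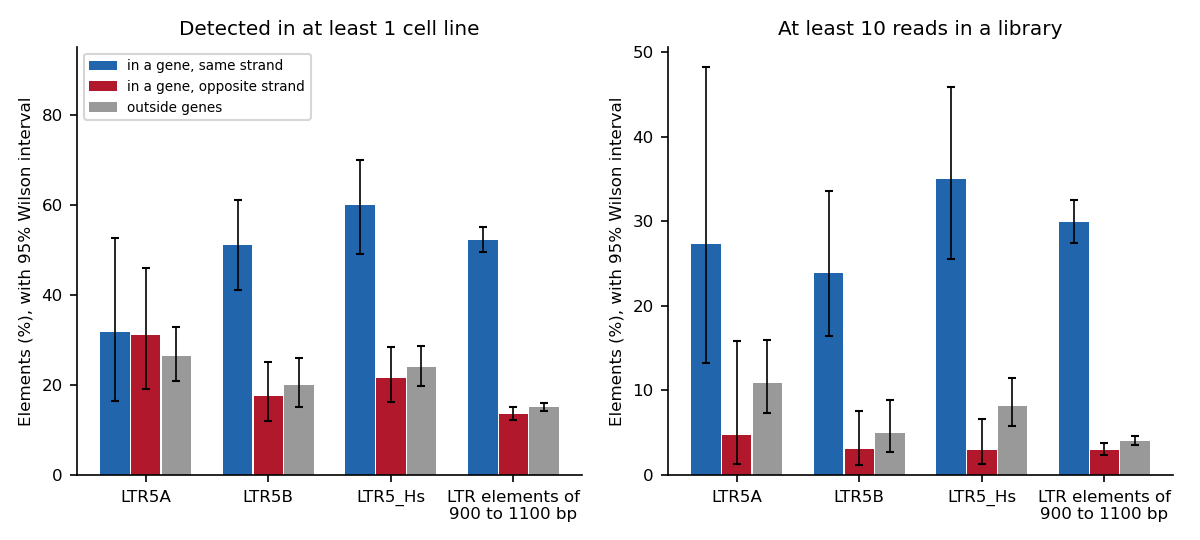
Share of elements detected in at least 1 line (left) and with at least 10 reads in a library (right), in %, by position to genes, for LTR5A, LTR5B, LTR5_Hs and LTR elements of 900 to 1100 bp, with bars for 95% Wilson intervals. LTR5B has 51.1% detected on the strand of the gene and 17.6% on the opposite strand, while LTR5A has 31.8% and 31.0%.

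Zinc finger genes, which encode DNA-binding repressors many of which recognise retroviral repeats, were frequent hosts of LTR5B. Of the 92 same-strand LTR5B elements, 25 (27.2%) lay in a gene whose symbol begins with ZNF or ZFP, as did 10 of the 22 (45.5%) with at least 10 reads. The corresponding shares were 2.04% and 5.24% over all same-strand LTR elements and 10% and 21.4% for LTR5_Hs, and 0 of 22 same-strand LTR5A elements lay in such a gene. Chromosome 19, where these genes cluster, held 80 LTR5B elements (18.1%) and 39.5% of LTR5B reads, against 2.00% of all LTR elements and 4.85% of their reads. It also held 55 LTR5_Hs elements (8.73%), so the excess was in part shared by that family.

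Host genes of detected same-strand LTR5B elements were themselves transcribed, with a median of 20.7 TPM in the line of highest level (45 genes), against 0.0822 TPM for hosts of the undetected elements (43 genes). For opposite-strand LTR5B elements the medians were 17.9 TPM (22 genes) and 13 TPM (98 genes), so that hosts of undetected elements were often transcribed too. In LTR5A the same-strand medians were 8.78 and 0.0338 TPM (7 and 17 genes). These medians describe the genes that hold these elements, and several genes can overlap 1 element.

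Overlap with an exon on the same strand was rare, with 5 LTR5A and 11 LTR5B elements. Of these, 2 LTR5A and 7 LTR5B elements were detected, and they held 516 and 1144 reads. Most reads of same-strand members thus fell on elements that overlap no exon in the Ensembl annotation of the files. By exons of GENCODE v44 on the element's strand, 771 of the 1944 reads of same-strand LTR5A elements (39.7%) and 1093 of the 4020 of LTR5B (27.2%) fell on exonic elements. Of the 20 members of highest mean TPM 11 were exonic, against 21 of all 272 LTR5A and 19 of all 442 LTR5B elements.

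Of the 20 members with the highest mean TPM, 8 were LTR5A and 12 LTR5B, and together they held 56.7% of all member reads. On the strand of a host gene lay 12 of them, 7 lay outside genes and 1 on the opposite strand. Of all members, 16.0% lay on the strand of a host gene, 56.3% outside genes and 24.2% on the opposite strand. For 14 of the 20 the lines differed by less than 4 times (highest over lowest line mean of TPM + 1).

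The leading LTR5A element, chr10:29426711-29427740 on the + strand, lay in SVIL-AS1, a transcribed pseudogene in GENCODE v44, and on its strand. CHLA 02 had 125 TPM, the replicates of CHLA 04 had 146 and 153 TPM, CHLA 05 had 156 TPM and the replicates of CHLA 06 had 177 and 181 TPM (936 reads in all). It was high in all libraries, with a ratio of 1.42 between the lines and an SD of 4.42 and 2.49 TPM between the technical replicates of CHLA 04 and CHLA 06. On the gene scale SVIL-AS1 was at 42.0, 59.0, 55.3, 56.5, 38.3 and 39.1 TPM in the same order of libraries, and was not highest where its LTR5A element was.

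The leading LTR5B element, chr19:53443775-53444761, lay on the strand of ZNF761 and TPM3P9. With libraries listed from here on as CHLA 02, both replicates of CHLA 04, CHLA 05 and both replicates of CHLA 06, it was at 82.5, 67.6, 75.6, 99.1, 111 and 97.1 TPM (511 reads), beside 23, 20.1, 21.1, 25.1, 22.1 and 21.1 TPM for ZNF761. The library values of both differed little. A pair of LTR5B elements in ZNF587B and CTD-2583A14.10, also on chromosome 19, behaved alike. The element chr19:57823627-57824595 was at 81.0, 92.3, 77.9, 88.5, 64.5 and 76.2 TPM. The element chr19:57828963-57829955 was at 73.0, 52.4, 60.7, 72.0, 71.2 and 54.1 TPM. No line stood apart at either of them.

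In ZNF611, chr19:52723561-52724546 overlapped an exon and was at 62.4, 43.3, 55.6, 43.5, 56.1 and 59.3 TPM, beside 43.6, 38.2, 41.5, 35.6, 37.7 and 40 TPM for the gene. The element chr19:9784066-9785035 in ZNF846 was at 50.2, 28.9, 29.7, 37.4, 60.2 and 49.4 TPM, lowest in CHLA 04. The LTR5B element chr20:34424999-34425992 in ITCH, which encodes a ubiquitin ligase, was the most even of the named members described here, at 65.9, 63.1, 70.6, 65.2, 66 and 55.0 TPM (ratio 1.10), while ITCH was at 92.2 to 127 TPM.

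In DAG1, the gene of dystroglycan, the LTR5A element chr3:49482081-49482664 was at 42.5, 75.5, 81.6, 58.4, 64.9 and 46 TPM. DAG1 was at 220, 333, 312, 169, 175 and 165 TPM, and both were highest in CHLA 04. In ACAA1, which encodes a peroxisomal thiolase, chr3:38135237-38136292 was at 20.7, 51.8, 29.8, 30.2, 34.0 and 27.2 TPM beside 42.8, 93.5, 56.3, 58.3, 55.6 and 45.6 TPM for the gene. In ACAA1 the first replicate of CHLA 04 stood above the other libraries, in the element as in the gene.

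Outside genes, the LTR5A element chr8:12565980-12567003, a 3′ LTR, was at 83.4, 102, 79.0, 80.5, 66 and 50.6 TPM. The LTR5B element chr5:1567392-1568346, 3876 bp past the 3′ end of the pseudogene SDHAP3, was at 47.8, 46.1, 51.8, 86.3, 33.2 and 39.2 TPM, highest in CHLA 05. The 1 opposite-strand element among the 20, chr5:43058135-43059111 in CTD-2201E18.3, was at 29.5, 61.5, 50.6, 40.5, 37.8 and 38.3 TPM, highest in CHLA 04.

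**Figure D3:**
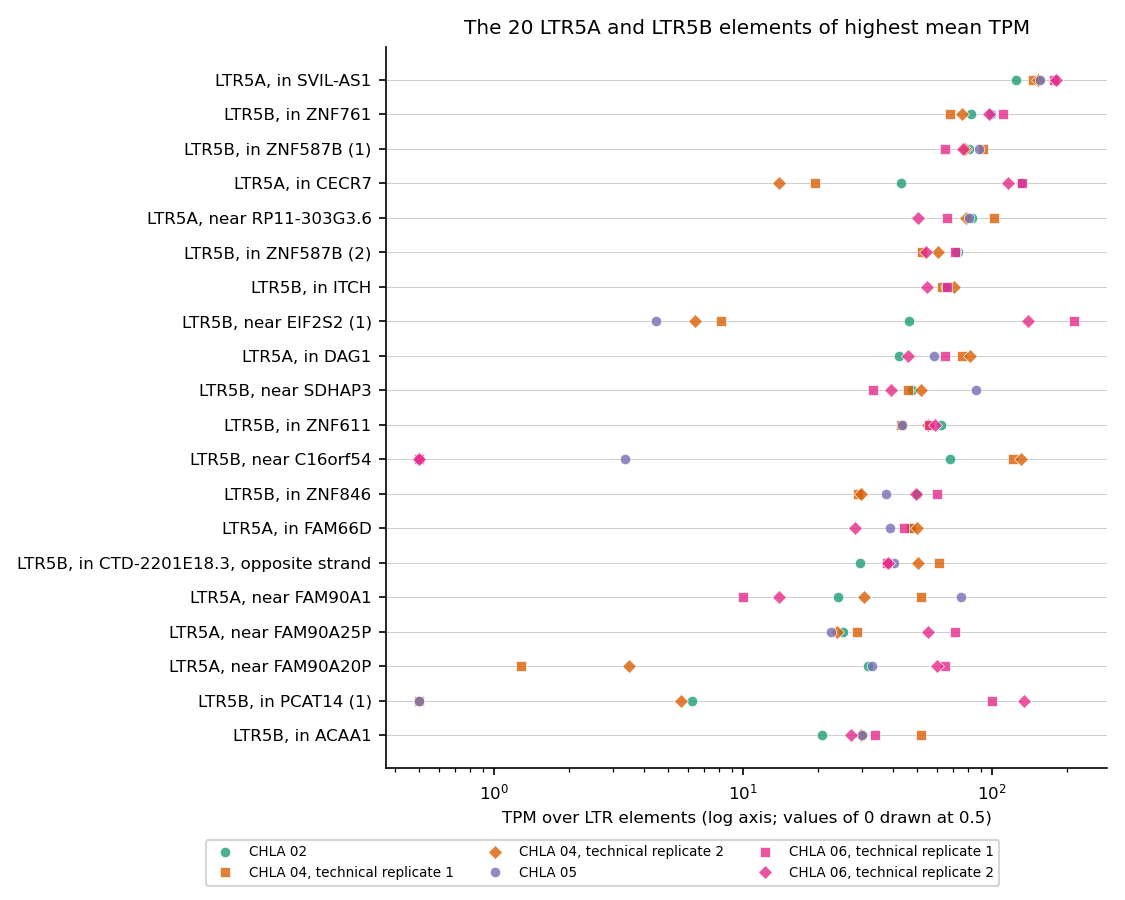
TPM over LTR elements (horizontal log axis, values of 0 drawn at 0.5) of the 20 members of highest mean TPM, named by host or nearest gene, with 1 point per library. The points of the SVIL-AS1 element lie between 125 and 181 TPM, while those of the element near C16orf54 run from 0 in CHLA 06 to 131 TPM in CHLA 04.

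Members differed between lines in part. Among the 114 members with at least 10 reads over the 6 libraries, 50 (43.9%) had a highest line mean at least 4 times the lowest on the scale of TPM + 1, against 55.1% of all LTR elements with as many reads and 43.4% of LTR5_Hs. The share was 27 of 45 for LTR5A (60%) and 23 of 69 for LTR5B (33.3%). Of these varying elements, 14 LTR5A and 3 LTR5B had under 50% of their read-length windows found once in the genome. Reads on such elements cannot be placed with certainty, so several of them can repeat the same signal. The share without them was not computed per family, and the difference between the families is not read as one of separate elements. For both families together the share fell with depth, to 8 of the 33 members with at least 100 reads (24.2%), where the background was 48.4%. Such a ratio has no replicate check between cultures of a line.

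CHLA 06 was the line of highest level for 20 of the 50, and CHLA 04 the line of lowest level for 24. Over all LTR elements these lines also led, with 6694 of 19827 varying elements highest in CHLA 06 and 5976 lowest in CHLA 04. The 24 include 14 LTR5A elements of chromosome 8, taken up below. Of the 50, 31 lay outside genes, 9 on the opposite and 7 on the same strand of a gene, and 3 in genes of both strands. Of all members, 56.3% lay outside genes, 24.2% on the opposite and 16.0% on the same strand, and 3.50% in genes of both strands. Nothing is read from these counts about varying members. Across the 114 members, Pearson's r of log2(TPM + 1) was 0.848 between the technical replicates of CHLA 04 and 0.92 between those of CHLA 06, and 0.335 to 0.714 between libraries of different lines. These points share libraries and low counts, and r is given as a description.

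The widest range was that of the solo LTR5B element chr16:29740241-29741225, outside genes on the + strand. CHLA 02 had 67.6 TPM, CHLA 04 had 122 and 131 TPM, CHLA 05 had 3.35 TPM and both libraries of CHLA 06 had 0 (67, 90, 143, 3, 0 and 0 reads). It was high in CHLA 02 and CHLA 04 and at or near 0 in CHLA 05 and CHLA 06, and was at least 40.5-fold higher in CHLA 04 than the higher floor of CHLA 06 (3 reads per library, 3.12 and 2.92 TPM). The long noncoding RNA gene AC009133.17 begins 4022 bp downstream on the same strand and followed the same order of lines, with 4.97, 17.8, 11.6, 0.185, 0 and 0.0707 TPM.

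The LTR5B element chr20:34135594-34136578, a 3′ LTR that lies 27286 bp past the 3′ end of RALY and 23262 bp before the 5′ end of EIF2S2, was at 46.4, 8.13, 6.39, 4.46, 214 and 140 TPM. It was high in CHLA 06, intermediate in CHLA 02 and low in CHLA 04 and CHLA 05, a ratio of 32.6. The technical replicates of CHLA 06 differed here beyond counting error. GENCODE v44 places the element in an exon of a noncoding RNA, ENSG00000287853.

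The LTR5A element chr22:17059134-17060168, in an exon of the noncoding gene CECR7 and on its strand, was at 43.2, 19.4, 13.9, 131, 132 and 116 TPM. CECR7 was at 9.76, 6.85, 3.34, 23.2, 17.8 and 16.7 TPM. Both were high in CHLA 05 and CHLA 06 and lowest in CHLA 04, with a ratio of 7.47 for the element.

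PCAT14, a noncoding gene that overlaps an HML-2 provirus on chromosome 22, held LTR5B elements at both ends. Its 5′ LTR, chr22:23537740-23538729, was at 6.02, 0, 0, 0, 36.2 and 51.3 TPM, and the 319 bp 3′ LTR, chr22:23546582-23546900, at 6.23, 0, 5.64, 0, 99.6 and 135 TPM. PCAT14 was at 3.23, 0, 0.418, 0, 19.6 and 27.4 TPM. All of them were highest in CHLA 06, with CHLA 02 next for the gene and the 5′ LTR, which was at least 10.8-fold higher in CHLA 06 than the higher floor of 3 reads in CHLA 04. The 3′ LTR is short, and its 6.23 and 5.64 TPM rest on 2 reads each.

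The LTR5B 3′ LTR chr6:150861466-150862438 lay 3111 bp before the 5′ end of MTHFD1L, a folate pathway gene, and on its strand. It was at 36.7, 9.61, 12.9, 18.1, 54.8 and 47.3 TPM, highest in CHLA 06, while MTHFD1L was at 73.6, 105, 117, 138, 114 and 96.5 TPM and lowest in CHLA 02. The levels of this element and this gene had different orders over the lines.

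The LTR5A element chr12:8220179-8221207 was at 24.1, 51.9, 30.6, 74.8, 9.96 and 14.0 TPM, highest in CHLA 05 and lowest in CHLA 06. It lay 53 bp past the 3′ end of FAM90A1, on the opposite strand, and 4028 bp past the 3′ end of the noncoding gene FAM66C on the same strand, which was at 7.82, 28.9, 17.2, 19.3, 6.98 and 3.5 TPM. The LTR5A element chr1:161433900-161434926 was likewise lowest in CHLA 06, at 21.3, 19.5, 32.4, 17.1, 3.99 and 5.60 TPM.

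For members outside genes, RNA that read through the end of a gene and RNA begun at the LTR were not told apart.

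**Figure D4:**
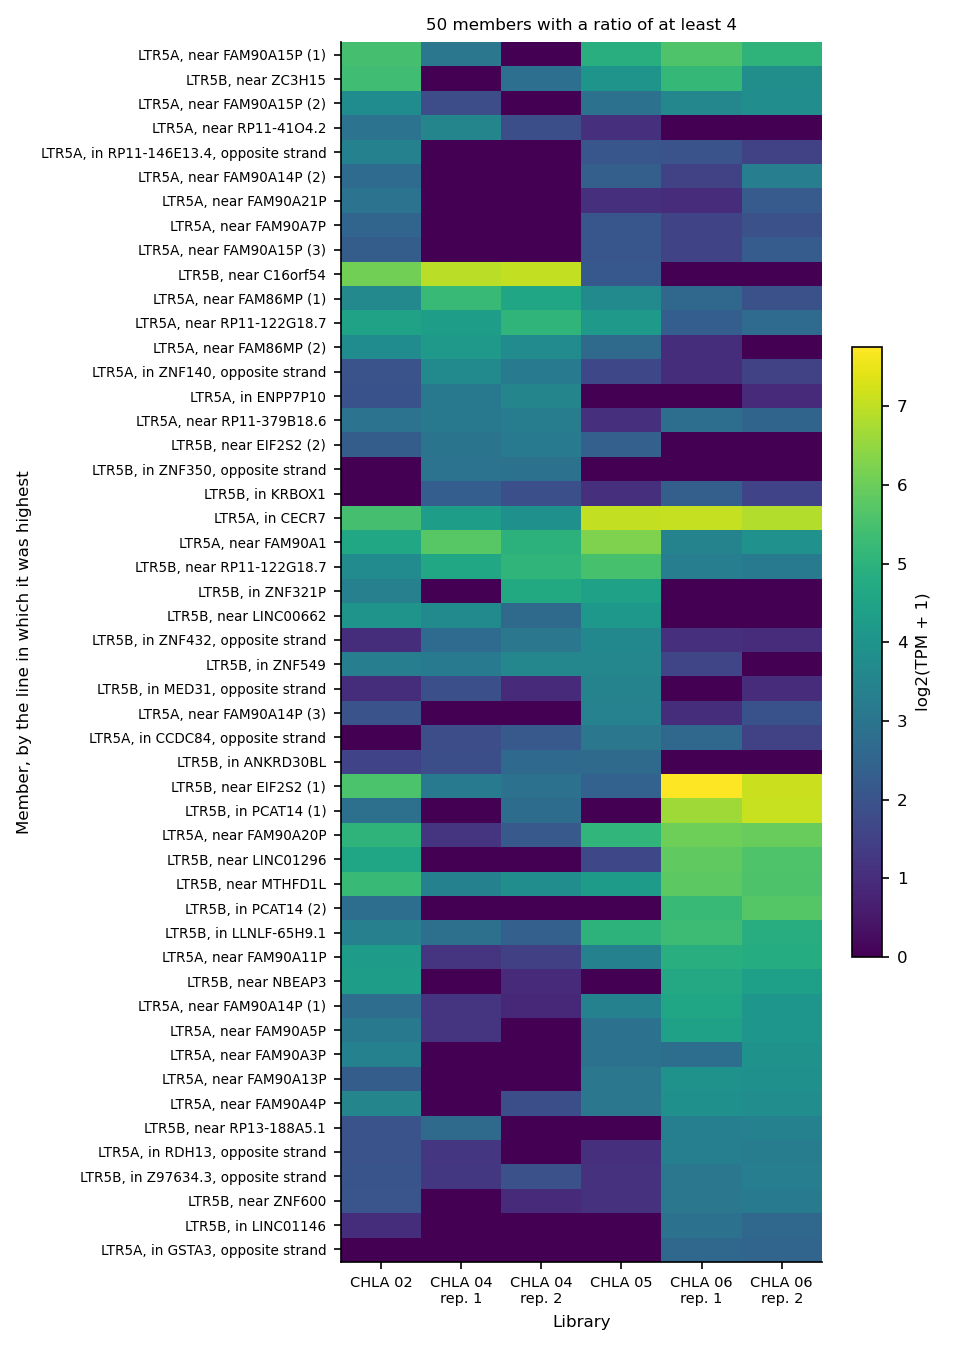
log2(TPM + 1) in the 6 libraries (columns) for the 50 members whose highest line was at least 4 times the lowest (rows, grouped by the line in which each was highest and named by host or nearest gene). The 14 LTR5A rows of chromosome 8 are lowest in CHLA 04, and 20 rows are highest in CHLA 06, the line most often highest among all varying LTR elements too.

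LTR5A elements on chromosome 8 were frequent among the members that varied between lines. The chromosome held 55 LTR5A elements (20.2%), 30 of them detected, and 39.0% of LTR5A reads, against 5.22% of all LTR elements and 4.24% of their reads. Among the 27 varying LTR5A elements 14 lay there, and all 14 were lowest in CHLA 04. Many of these elements adjoin FAM90A genes, a primate gene family of tandem copies, since 26 LTR5A elements lay within 1000 bp of a FAM90A gene, 24 of them on chromosome 8, and 0 LTR5B and 0 LTR5_Hs elements did.

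These copies are so alike that reads cannot be placed with certainty. A group of 18 LTR5A elements from 7260529 to 8027021 on chromosome 8 was at least 98% identical, with 11.5% of their 125-base windows, the length of a read, found once in the genome. Their median spacing was 7647 bp (7622 to 7650 over 14 spacings), and each of the 18 lay past the 3′ end of a FAM90A copy on the opposite strand. For this reason reads were summed over the group.

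In the group of 18, CHLA 02 had 64 reads, CHLA 04 had 4 and 4, CHLA 05 had 45 and CHLA 06 had 96 and 103. In reads per 1000000 LTR reads, CHLA 02 had 137 (95% counting interval 106 to 176), CHLA 04 had 11.3 (3.07 to 28.8) and 7.82 (2.13 to 20.0), CHLA 05 had 109 (79.3 to 145) and CHLA 06 had 214 (173 to 261) and 214 (175 to 260). CHLA 04 lay below and CHLA 06 above the other lines, with no overlap of CHLA 04 with any other line and an overlap of CHLA 06 with CHLA 02 by a few reads. As the values were summed over the copies, the order does not depend on which of the 18 copies a read was assigned to.

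A pair in the same stretch, chr8:7298637-7299668 and its near-identical copy at 8010698, had the same order, at 112, 5.63, 11.7, 96.6, 210 and 195 reads per 1000000 LTR reads. The former was at 31.8, 1.29, 3.48, 33, 64.5 and 60.4 TPM and lay 1943 bp from FAM66B, which was at 10.6, 8.69, 2.71, 7.12, 14.4 and 13.2 TPM. A pair farther along the chromosome had another order. The elements chr8:12171126-12172146 in FAM66D and chr8:12413445-12414465 had 159, 163, 164, 138, 256 and 185 reads per 1000000 LTR reads, with CHLA 04 close to CHLA 02 and CHLA 05.

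In LTR5B, near-identical copies on chromosomes 14 and 22, with 6.88% of windows found once, had 90.2, 0, 1.96, 4.83, 178 and 150 reads per 1000000 LTR reads. They were high in CHLA 02 and CHLA 06 and at or near 0 in CHLA 04 and CHLA 05. The copy on chromosome 14, chr14:19269575-19270584, lay 14069 bp past the 3′ end of the noncoding gene LINC01296, which had the same order at 26.7, 0, 0.0352, 4.73, 48.0 and 43.9 TPM. In all, 69 of 528 full-length members fell into 23 groups of copies at least 98% identical, 44 LTR5A and 25 LTR5B, and 15 of the groups had under 10 reads. Of the 72 members with at least 10 reads in a library, 15 had under 50% of their windows found once. How reads with several matches were assigned is not given in the sources used here.

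**Figure D5:**
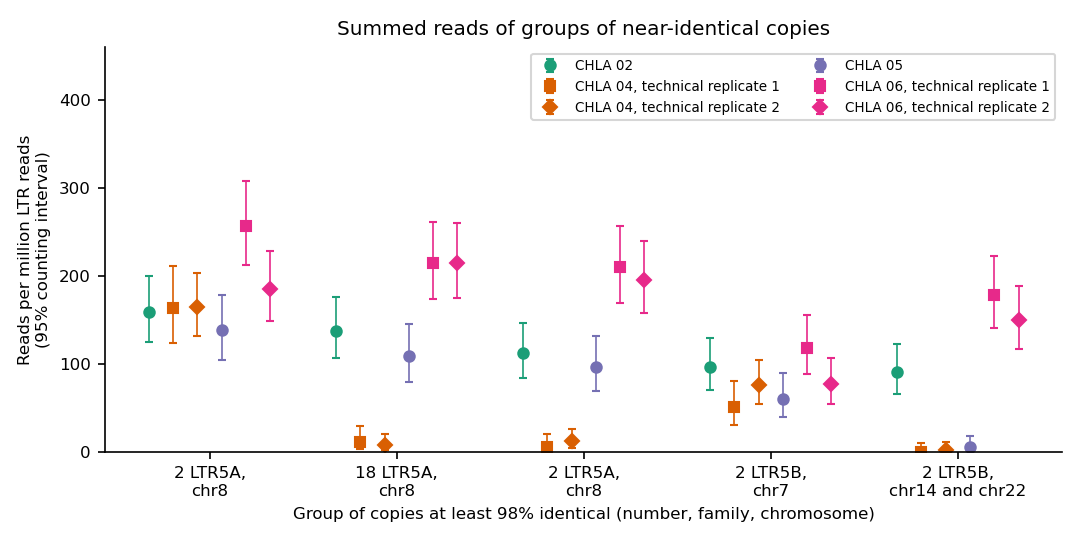
Reads per 1000000 LTR reads, with 95% counting intervals, summed over groups of copies at least 98% identical (number, family and chromosome on the horizontal axis), 1 point per library. The group of 18 LTR5A elements is at 7.82 to 11.3 in CHLA 04 and at 109 to 214 in the other lines.

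Proviral and solo members were compared, a proviral LTR being one within 100 bp of HERVK-int on the same strand. Among LTR5A elements 50% of the 42 proviral and 23.9% of the 230 solo LTRs were detected, a difference of 26.1 points (10.5 to 41.4), but with at least 10 reads the shares were 16.7% and 10%. Among LTR5B elements 24% of 50 proviral and 27.6% of 392 solo LTRs were detected, a difference of -3.55 points. By reads, solo LTRs carried 3889 of the 4799 LTR5A reads, 3′ LTRs 788 and 5′ LTRs 122.

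In 28 cases both LTRs of a provirus were members, and 23 of these pairs were full length, with a median identity of 93.1% (77.9% to 97.1%). The 3′ LTR had more reads in 9 pairs and the 5′ LTR in 5, and in 14 they were equal, 13 of those with no read at either end. Summed over pairs there were 234 reads on 5′ and 654 on 3′ LTRs. A single pair, with a 5′ LTR of 778 bp and a 3′ LTR of 985 bp, accounted for most of the gap.

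That pair, on chromosome 20, had 3, 4, 7, 3, 0 and 0 reads on the 5′ LTR, 46, 6, 7, 4, 206 and 144 on the 3′ LTR and 42, 23, 48, 15, 105 and 67 on the internal sequence between them. The 3′ LTR was above the 5′ LTR in CHLA 02 and CHLA 06 and level with it within a few reads in CHLA 04 and CHLA 05. The PCAT14 provirus had 6, 0, 0, 0, 35 and 53 reads on the 5′ LTR, 2, 0, 2, 0, 31 and 45 on the 319 bp 3′ LTR and 173, 0, 5, 4, 1159 and 1567 on the internal sequence. At this locus most reads were internal and came from CHLA 06.

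An LTR5A provirus on chromosome 4, from 9657956 to 9667550, had another order of lines. It had 13, 13, 14, 5, 1 and 0 reads on the 5′ LTR, 12, 28, 26, 11, 5 and 3 on the 3′ LTR and 94, 136, 186, 115, 13 and 18 on the internal sequence. All 3 portions were lowest in CHLA 06, the line with the largest share of HERVK-int reads. On chromosome 12, from 133090536 to 133096478, the 5′ LTR had 13, 12, 17, 6, 1 and 7 reads and the 3′ LTR 3, 9, 9, 2, 1 and 2. Here the 5′ LTR held more of the reads.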

How the data were processed

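The authors sequenced total RNA of 4 cell lines in 6 stranded libraries of paired 125-base reads, with base calls by CASAVA 1.8.2 and trimming by Trimmomatic. Mapping to GRCh38 (Ensembl 82) used the CLCbio Genomics Workbench (RNA-Seq tool, default settings). The authors deposited TPM per transcript and, from a separate mapping, TPM per RepeatMasker LTR element. Its treatment of strand and of reads with several matches is not given in the sources used here.

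TPM multiplied by length fell on whole multiples of 1 read (tolerance 0.05), from which reads were recovered, and the recovery was tested on simulated data. Detection used log2(TPM + 2), quantile normalization and a lowess curve (span 0.667), with the maximum of technical replicates. Gene TPM was summed over transcripts, and host genes were Ensembl spans from the transcript files. Identities came from edit distances (edlib 1.3.9.post1). GENCODE v44 served for annotation of named elements, and 82.6% of the transcripts found there had the same coordinates. No tests were made, since each line was 1 biological sample.

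Named members were the 20 of highest mean TPM among those with at least 10 reads in a library, the 5 highest of each family, every member with a ratio of at least 4 and the hosts of these. The genes named were SMARCB1, MYC, SETDB1, ATRX, TRIM28, PAX6, NES and TUBB3. Other members were named after their values were seen. The members, lists and rules were chosen with earlier results of these data known. Alternatives covered detection thresholds, hosts, provirus distance, pseudocounts, uniqueness and leaving out technical replicates. Some sequence windows are not reported here.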

Additional observations from a re-analysis of the deposited data

How the results depend on the processing

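Detection depended on the threshold. In place of 76 LTR5A and 120 LTR5B elements there were 30 and 52 above a TPM of 10, 42 and 65 with at least 5 reads, 30 and 42 with at least 10 reads, and 25 and 47 in all 4 lines. The LTR5B orientation difference was 20.9 points with at least 10 reads, and the LTR5A difference was 31.4 points with protein-coding hosts of GENCODE v44, an alternative chosen after seeing the data that leaves 3 same-strand elements. Protein-coding hosts by the files' own biotype were not run, since the files used here give none. The LTR5A difference between proviral and solo LTRs shrank from 26.1 to 6.67 points (TPM 10, and at least 10 reads), 4.27 points (at least 5 reads) and 3.21 points (all 4 lines), and that of both families from 9.66 to -0.346 points in all 4 lines.

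By summed TPM, with the lines in the order of their numbers, the shares were 0.0795%, 0.0728%, 0.0929% and 0.0960% for LTR5A and 0.129%, 0.123%, 0.130% and 0.156% for LTR5B. Without the leading element they were 0.139%, 0.118%, 0.165% and 0.163% of reads for LTR5A and 0.230%, 0.223%, 0.222% and 0.273% for LTR5B. Varying members were 33 of 84 with at least 20 reads (39.3%, against 49.7% of all LTR elements) and 83 of 114 at a ratio of 2 (72.8%, against 84.9%). By alternatives chosen after seeing the data, they were 33 of 92 with at least 50% of windows found once (35.9%, against 55.1% of all LTR elements without that limit) and 8 of 33 with at least 100 reads (24.2%, against 48.4%). These counts fall in part because fewer elements were tested. Of 384 ratios of the 64 named members under alternatives, 364 stayed within a fixed factor of the main value, 20 moved by more and 0 reversed. That factor was a set limit and not a measured error. Each ratio used only the highest and lowest line of the member. Leaving out a replicate of another line could not change it, so the 364 include values that were fixed in advance. A reversal was counted only for members with a main ratio of at least 4. For the shares of LTR reads, leaving out a technical replicate was no test of stability. Their intervals reached at least the SD of the 2 replicates on either side of the mean. The replicate that was kept always lies within that range. Leaving out a technical replicate moved no count above beyond such a fixed factor and no difference beyond its interval. The difference between proviral and solo LTRs of both families was nevertheless 5.35 points without replicate 1 of CHLA 04. No paired analysis was possible because replicate numbers mark technical replicates of different lines and no test was made. The causes of these changes were not tested. Depth limits single elements, since 1 read can pass the detection rule.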

Other observations

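A further 26 elements are named LTR5 without a suffix in the annotation and were not members. Together they had at most 3 reads in any library, the level that a count of 0 allows.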
